A study of Arabidopsis thaliana with 18 samples.

Results

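The transcripts described here rose in phosphate-limited Arabidopsis shoots of both genotypes studied and did not rise by more than a limit under mild oxidative stress. A probe set, the group of probes on the array that reports 1 transcript, was a member if its mean log2 value under phosphate limitation (P-lim) exceeded the control mean by at least 0.8 in WT and again by at least 0.8 in pad2-1, and if its mean under methyl viologen (MV) exceeded the control mean by less than 0.5 in each genotype. Of 22746 probe sets, 38 met these values. The probe sets of AT3G49160 and SQD1, which were to be left out by name, were 2 of them, so that 36 members remained. A single gene was known for 13 of the 36, and the other 23 are given by their probe set ID.

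Affymetrix ATH1 arrays were hybridized with RNA from shoots of seedlings aged 18 days. The WT was Col-0, and pad2-1 carries a mutation in GSH1, the gene of the first enzyme of glutathione synthesis, in the Col-0 background. Both genotypes were grown on Murashige and Skoog agar with 1% sucrose in 16 h of light at 22 °C, either on the full medium (control), on medium with 20% of its phosphate (P-lim), or on medium with MV, a herbicide that makes chloroplasts produce superoxide. The concentration of MV was 0.05 µM in the methods, whereas the labels give the same number in M. Each of the 6 groups had 3 arrays, each from a single biological replicate. The descriptions of the WT arrays under P-lim and MV name the normal medium, so the groups were taken from titles and treatment labels. The tissue is a mixture of cell types, and more cells of a type cannot be told apart from more RNA per cell.

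Plants that run short of phosphate switch on a set of genes known as the phosphate starvation response. The transcription factor PHR1 drives many of them and is held back by SPX proteins while phosphate is ample. Among the products are phosphate transporters, secreted acid phosphatases and ribonucleases that release phosphate from organic compounds, and enzymes that replace phospholipids of membranes with galactolipids and sulfolipids. Phosphate shortage also changes auxin metabolism, iron homeostasis and the redox state of tissues.

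Values are log2 signals as deposited, and a difference of 1 is a doubling. Replicate arrays of a group correlated with r between 0.9964 and 0.9984 over all probe sets. The lower quartile of an array lay at a log2 signal of 3.8 to 3.91, and 6 members had at least 1 array below that level. Rubisco activase (RCA), the 1 leaf marker with a named probe set of 10 listed, had group means of 13.19 to 13.27. EXPA7, the 1 root marker with a named probe set of 10 listed, had group means of 4.1 to 4.35. None of the P-lim or MV changes of either marker passed the test.

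The rise under P-lim chose the members, so it is given here as a description. It ran from 0.81 to 4.06 in WT, with a median of 1.08, and from 0.83 to 4.62 in pad2-1, with a median of 1.36. Over all probe sets the medians were 0.01 and 0.02. A rise of at least 1 was reached by 20 members in WT and by 32 in pad2-1. The rise was larger in pad2-1 for 31 members and larger in WT for 5, and 51.8% of all probe sets had the larger change in pad2-1. The difference between the rises, both bounded by the rule, had a median of 0.29 over the members and 0.01 over all probe sets. In both genotypes the 3 P-lim arrays lay above the 3 control arrays for 33 members, and 6.92% of all probe sets did the same. The exceptions were AT5G64120 in both genotypes and AT4G12490 and 253660_at in pad2-1. Under MV the members moved by -0.23 to 0.44 in WT and by -0.56 to 0.41 in pad2-1.

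**Figure D1:**
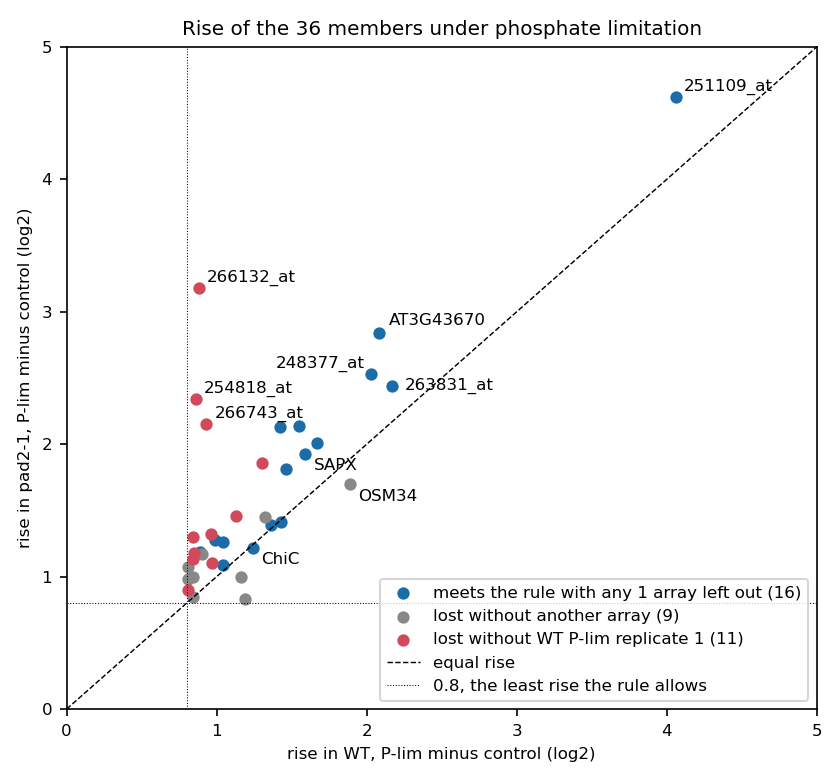
The rise under P-lim (mean P-lim minus mean control, log2) is plotted for each of the 36 members, with WT on the horizontal and pad2-1 on the vertical axis. The dashed line marks equal rises and the dotted lines mark 0.8. Most points lie above the dashed line, 251109_at stands far from the rest with rises of 4.06 and 4.62, and 266132_at has the widest difference, 0.88 in WT and 3.18 in pad2-1. Colours show which members still met the rule after an array was left out.

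At the edge of the rule, the members with the smallest rises were AT5G01870, 250073_at and AT5G49280, each with 0.81 in WT. The nearest probe sets outside had 0.80 in WT (264901_at), 0.78 in WT (266267_at) and 0.77 in WT (263904_at). On the MV side, 253660_at, AT5G49280 and AT2G36885 were just inside with 0.44, 0.43 and 0.42 in WT. Just outside were 259871_at with 0.51 in pad2-1, 260551_at with 0.56 in WT and 255360_at with 0.57 in WT.

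Not all arrays of a group carried the rise alike, and this touches the results below. WT P-lim replicate 1 exceeded the mean of WT P-lim replicates 2 and 3 by at least 0.5 in 11 members, whereas 0.312% of all probe sets had such a gap. In pad2-1 the first P-lim replicate was the low one: it lay at least 0.5 below the mean of the other 2 in 13 members and in 0.62% of all probe sets. Both gaps occurred together in 9 members. Among the control arrays, pad2-1 replicate 2 exceeded pad2-1 replicate 1 by at least 0.3 in 21 members, against 2.54% of all probe sets. When each of the 18 arrays was left out in turn, 16 members met the rule every time. Without WT P-lim replicate 1, 11 members no longer met it and 25 did. The part of these arrays in the results was not tested, and values without them are given beside some of the results they touch. Rises without a pad2-1 control array are not given.

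**Figure D2:**
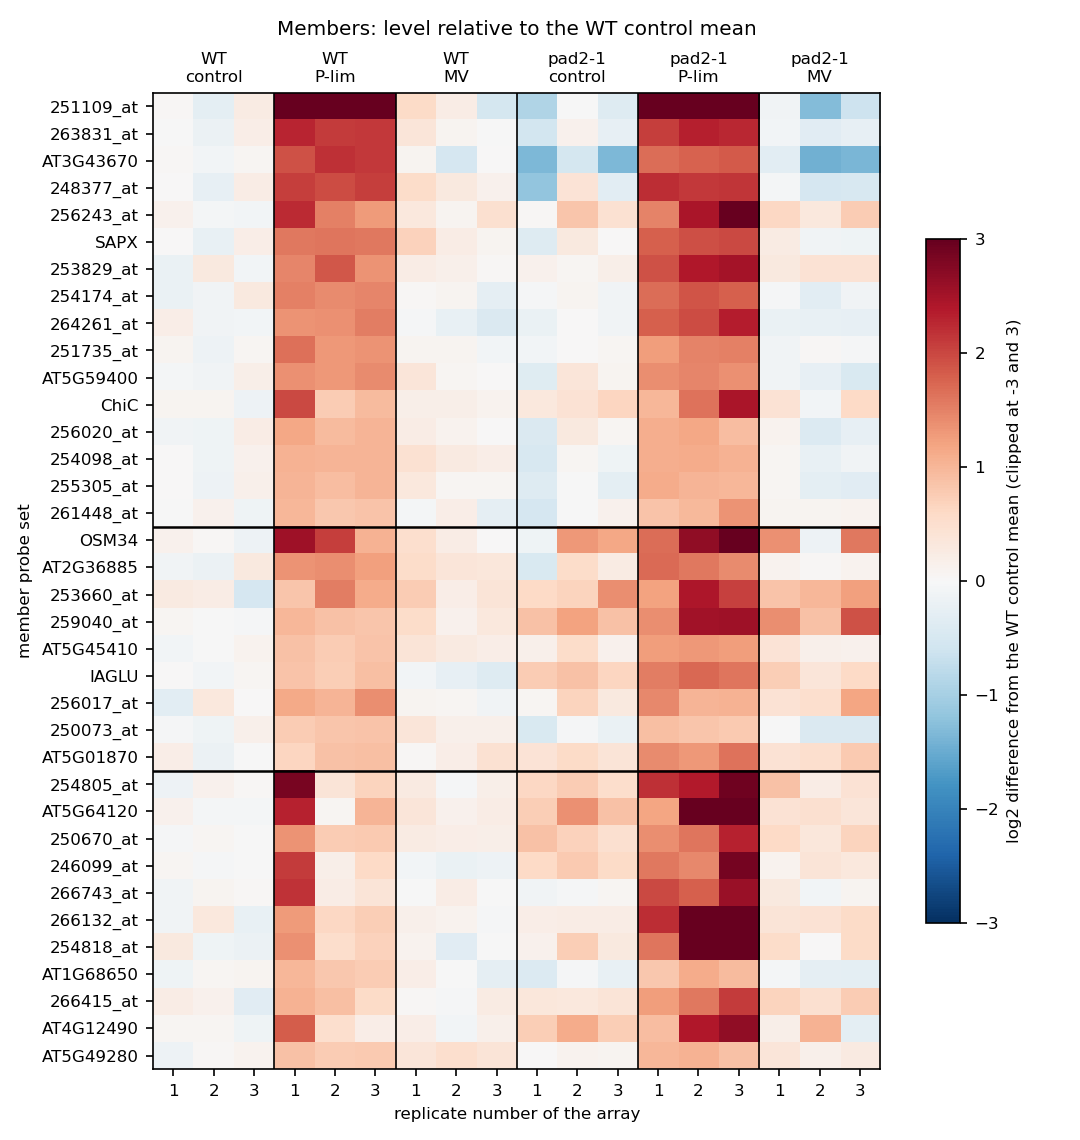
Each row is a member and each column an array, grouped by genotype and condition. Colour gives the log2 signal minus the mean of the 3 WT control arrays, clipped at the ends of the colour bar. The 16 rows at the top met the rule with any 1 array left out, the 9 rows in the middle depended on some other array, and the 11 rows at the bottom did not meet the rule without WT P-lim replicate 1, which is the darkest WT column for those rows.

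The 16 members that met the rule in every case included the probe set with the largest rise of the whole set, 251109_at, for which no gene name was at hand and which was singled out after its values were seen. Its log2 signals were 8.40, 8.08 and 8.62 in WT control and 12.47, 12.42 and 12.39 in WT under P-lim. In pad2-1 they were 7.46, 8.36 and 7.99 in the control and 12.23, 12.67 and 12.76 under P-lim. The P-lim arrays lay far above all others in both genotypes, a 16.67-fold rise in WT and 24.54-fold in pad2-1, and the 2 genotypes overlapped under P-lim. Under MV the signals were 8.93, 8.59 and 7.85 in WT and 8.25, 7.07 and 7.74 in pad2-1, within or near the range of the controls.

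SAPX encodes the stromal ascorbate peroxidase, which removes hydrogen peroxide in the chloroplast with ascorbate, the antioxidant that glutathione helps to recycle. It had log2 signals of 7.96, 7.73 and 8.15 in WT control and 9.53, 9.55 and 9.54 in WT P-lim. The corresponding pad2-1 values were 7.57, 8.23 and 7.97 in the control and 9.75, 9.87 and 9.93 under P-lim. All P-lim arrays were above all control arrays, by 1.59 in WT and 1.93 in pad2-1, with almost no spread among the WT P-lim arrays. The MV arrays stood at 8.63, 8.18 and 8.02 in WT and 8.19, 7.83 and 7.81 in pad2-1, so that this peroxidase transcript changed by 0.33 and 0.02 under the superoxide-generating herbicide. Under P-lim the pad2-1 arrays lay above the WT arrays by 0.31 ± 0.16 (SE), a difference that did not pass the test (limma adjusted p = 0.346 with all 18 arrays in the fit). With only the 6 P-lim arrays in the fit it did, with an adjusted p = 0.0248.

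A second redox gene, AT3G43670, belongs to the copper amine oxidases, which oxidize amines and release hydrogen peroxide. WT arrays read 5.48, 5.36 and 5.51 in the control and 7.37, 7.65 and 7.57 under P-lim. In pad2-1 the control arrays read 4.11, 4.93 and 4.11 and the P-lim arrays 7.13, 7.23 and 7.30. The pad2-1 plants thus started lower and reached nearly the WT level, with rises of 2.08 in WT and 2.84 in pad2-1. The control level was lower in pad2-1 by -1.06 ± 0.24 (SE), and this passed the test (limma adjusted p = 0.0108), although not without pad2-1 control replicate 1 (0.0546) or replicate 3 (0.0566). Under MV, where arrays of WT gave 5.53, 4.94 and 5.46 and those of pad2-1 gave 5.13, 4.02 and 4.08, the groups overlapped. The MV difference of -0.90 ± 0.24 had a limma adjusted p = 0.0383 that rose above the threshold when 1 of 7 arrays was left out, to between 0.0502 and 0.178 (WT control replicate 1, WT P-lim replicate 3, pad2-1 P-lim replicate 2, WT MV replicates 1 and 3, pad2-1 MV replicates 2 and 3). It was 0.129 with only the MV arrays in the fit.

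AT5G64120 encodes a class III peroxidase, a secreted enzyme type that uses hydrogen peroxide in cell walls. WT control arrays gave 3.72, 3.53 and 3.55, and WT P-lim arrays gave 5.91, 3.66 and 4.62. The first WT P-lim array was the high one, the second lay within the control range, and all 3 control arrays were below the lower quartile of their arrays. In pad2-1 the signals were 4.34, 4.96 and 4.47 in the control and 4.78, 6.65 and 6.71 under P-lim, with the first P-lim array inside the control range. With MV the pad2-1 arrays, at 4.04, 4.08 and 3.97, lay below all pad2-1 control arrays, a change of -0.56. In WT the MV change was 0.24. The rule set no limit on a fall under MV. Without WT P-lim replicate 1 the WT rise of 1.13 fell to 0.54. The genotypes overlapped under P-lim (1.32 ± 0.45, SE; limma adjusted p = 0.109). Leaving out both P-lim arrays numbered 1, a fit chosen after the data were seen, gave a difference of 2.54 (limma adjusted p = 9.3e-06). The pad2-1 arrays already lay above the WT arrays in the control, by 0.99 ± 0.45 (limma adjusted p = 0.256). That control difference passed with only the control arrays in the fit (0.0064) and without both P-lim arrays numbered 1 (0.00264).

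Several named members belong to protein families induced when plants meet pathogens or osmotic stress. OSM34 encodes an osmotin-like protein of the thaumatin family (PR-5), which has antifungal activity. Its signals were 3.78, 3.69 and 3.50 in WT control, 6.19, 5.74 and 4.69 in WT P-lim, and 4.17, 3.88 and 3.66 in WT with MV. In pad2-1 they were 3.53, 4.95 and 4.82 in the control, 5.34, 6.32 and 6.74 under P-lim, and 5.03, 3.51 and 5.23 with MV. The P-lim arrays were the highest in each genotype, with a wide spread in all 3 pad2-1 groups, and the genotypes overlapped in every condition. The WT controls were all below the lower quartile of their arrays, so that the low side of the rise of 1.89 in WT was near background. Without WT P-lim replicate 1 that rise was 1.56. OSM34 missed the rule without pad2-1 MV replicate 2.

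ChiC, a class V chitinase that cuts chitin, the polymer of fungal walls, had 4.10, 4.09 and 3.85 in WT control against 5.99, 4.78 and 4.97 in WT P-lim. In pad2-1 it had 4.33, 4.44 and 4.66 in the control against 5.00, 5.64 and 6.46 under P-lim. As with OSM34, the first P-lim array was the highest in WT and the lowest in pad2-1. The rises were 1.24 in WT and 1.22 in pad2-1, and without WT P-lim replicate 1 the WT rise was 0.86. The genotypes overlapped under P-lim (0.45 ± 0.30, SE; limma adjusted p = 0.499), and without both P-lim arrays numbered 1 the difference was 1.17 (limma adjusted p = 0.00484). In the control the pad2-1 arrays also lay above the WT arrays, by 0.46 ± 0.30 (limma adjusted p = 0.477). With only the control arrays in the fit that difference passed (limma adjusted p = 0.0324).

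AT4G12490 encodes a protein of the lipid transfer type from the group that includes AZI1 and EARLI1. The signals were 4.05, 4.06 and 3.86 in WT control and 5.80, 4.50 and 4.20 in WT P-lim. In pad2-1 they were 4.73, 5.11 and 4.72 in the control and 4.91, 6.39 and 6.64 under P-lim. The same 2 arrays stood apart, high in WT and low in pad2-1. With MV the change was 0.09 in WT and -0.55 in pad2-1, and the MV arrays overlapped the controls in both. Without WT P-lim replicate 1 the WT rise of 0.84 was 0.35, below the limit of the rule. The difference between the genotypes under P-lim (1.15 ± 0.41, SE) had a limma adjusted p = 0.128, which became 0.0231 without WT P-lim replicate 1 and 0.0106 without pad2-1 P-lim replicate 1. The pad2-1 arrays already lay above the WT arrays in the control, by 0.86 ± 0.41 (limma adjusted p = 0.286). That control difference passed with only the control arrays in the fit (0.0032) and without both P-lim arrays numbered 1 (0.0338).

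AT5G01870, a lipid transfer protein that binds lipids outside the cell, had P-lim arrays that lay closer together. It missed the rule without WT control replicate 2 or 3 or without WT P-lim replicate 2 or 3. WT arrays had 5.94, 5.56 and 5.72 in the control and 6.38, 6.63 and 6.64 under P-lim. In pad2-1 the control arrays had 6.15, 6.32 and 6.13 and the P-lim arrays 7.15, 7.05 and 7.36. In the control and under P-lim the pad2-1 arrays lay above the WT arrays, by 0.46 ± 0.12 (SE) in the control (limma adjusted p = 0.0306) and by 0.64 ± 0.12 under P-lim (limma adjusted p = 0.00412). The control difference was lost without any of 4 of the 6 control arrays, WT replicates 2 and 3 and pad2-1 replicates 1 and 2, where the adjusted p was between 0.0545 and 0.163. AT5G49280, of the hydroxyproline-rich glycoprotein family of the cell wall, rose by 0.81 in WT and 0.90 in pad2-1, from 6.65, 6.83 and 6.91 to 7.68, 7.57 and 7.58 in WT and from 6.82, 6.91 and 6.87 to 7.79, 7.84 and 7.67 in pad2-1. Its genotypes overlapped in the control and under P-lim and no condition passed the test. It missed the rule without WT control replicate 1, and also without WT P-lim replicate 1, where its WT rise was 0.78.

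IAGLU encodes a UDP-glucosyltransferase that joins glucose to the auxin indole-3-acetic acid. In WT its signals were 7.41, 7.31 and 7.45 in the control, 8.25, 8.13 and 8.29 under P-lim, and 7.31, 7.15 and 7.0 with MV. In pad2-1 they were 8.16, 8.26 and 8.04 in the control, 8.92, 9.11 and 8.99 under P-lim, and 8.12, 7.75 and 7.99 with MV. The 3 arrays of every group lay close together, and unstressed pad2-1 stood at about the level of phosphate-limited WT. The pad2-1 arrays were above the WT arrays by 0.77 ± 0.09 (SE) in the control (limma adjusted p = 2.62e-05), by 0.78 ± 0.09 under P-lim (limma adjusted p = 5.94e-05) and by 0.80 ± 0.09 with MV (limma adjusted p = 2.81e-05). All 3 calls were kept in every alternative fit, and the rises under P-lim were 0.84 in WT and 0.85 in pad2-1. IAGLU missed the rule without WT control replicate 2 or without pad2-1 control replicate 3.

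AT1G68650 encodes a membrane protein of the UPF0016 family, whose member in yeast, Gdt1, carries calcium and manganese. It had 6.17, 6.35 and 6.38 in WT control and 7.29, 7.11 and 7.06 in WT P-lim, and 5.90, 6.26 and 6.08 in pad2-1 control and 7.10, 7.41 and 7.24 in pad2-1 P-lim. The P-lim arrays were above the controls in both genotypes and the genotypes overlapped. Its WT rise of 0.85 was 0.79 without WT P-lim replicate 1, just short of the rule. AT5G59400, for which no role is given here, rose from 5.95, 5.91 and 6.19 to 7.39, 7.32 and 7.43 in WT. In pad2-1 it rose from 5.65, 6.37 and 6.09 to 7.42, 7.49 and 7.38, a rise of 1.36 in WT and 1.39 in pad2-1 that met the rule with any array left out.

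AT2G36885 had 7.50, 7.43 and 7.91 in WT control and 8.95, 9.01 and 8.85 in WT P-lim. In pad2-1 it had 7.16, 8.17 and 7.86 in the control and 9.31, 9.20 and 9.02 under P-lim. The P-lim arrays were above the controls in both genotypes, with the first pad2-1 control array the lowest of all. AT2G36885 missed the rule without WT control replicate 3. AT5G45410 had 8.15, 8.22 and 8.35 in WT control and 9.13, 9.01 and 9.09 in WT P-lim, and in pad2-1 8.39, 8.80 and 8.36 in the control and 9.50, 9.55 and 9.50 under P-lim. Under P-lim all pad2-1 arrays of AT5G45410 were above all WT arrays, by 0.44 ± 0.10 (SE; limma adjusted p = 0.0129), a call lost without replicate 2 of WT P-lim (0.0572) or of pad2-1 P-lim (0.0533). AT5G45410 missed the rule without WT control replicate 1.

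A pair of members without a gene name differed most between the genotypes under P-lim. The signals of 266132_at were 3.91, 4.33 and 3.80 in WT control and 5.29, 4.63 and 4.75 in WT P-lim, against 4.22, 4.23 and 4.23 in pad2-1 control and 6.23, 7.77 and 8.20 in pad2-1 P-lim. The genotypes shared a low control level and separated under P-lim by 2.51 ± 0.32 (SE; limma adjusted p = 0.000106). The rise was 1.84-fold in WT and 9.04-fold in pad2-1. For 254818_at the signals were 4.86, 4.44 and 4.40 in WT control, 5.94, 5.09 and 5.26 in WT P-lim, 4.69, 5.30 and 4.87 in pad2-1 control and 6.18, 7.62 and 8.11 in pad2-1 P-lim. It too overlapped between genotypes in the control and was apart under P-lim, by 1.87 ± 0.35 (SE; limma adjusted p = 0.00283). Both probe sets missed the rule without WT P-lim replicate 1, where their WT rises were 0.67 and 0.60. The rule used the same P-lim means, so these p-values are not independent of how the members were chosen. The difference of their rises was not tested.

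**Figure D3:**
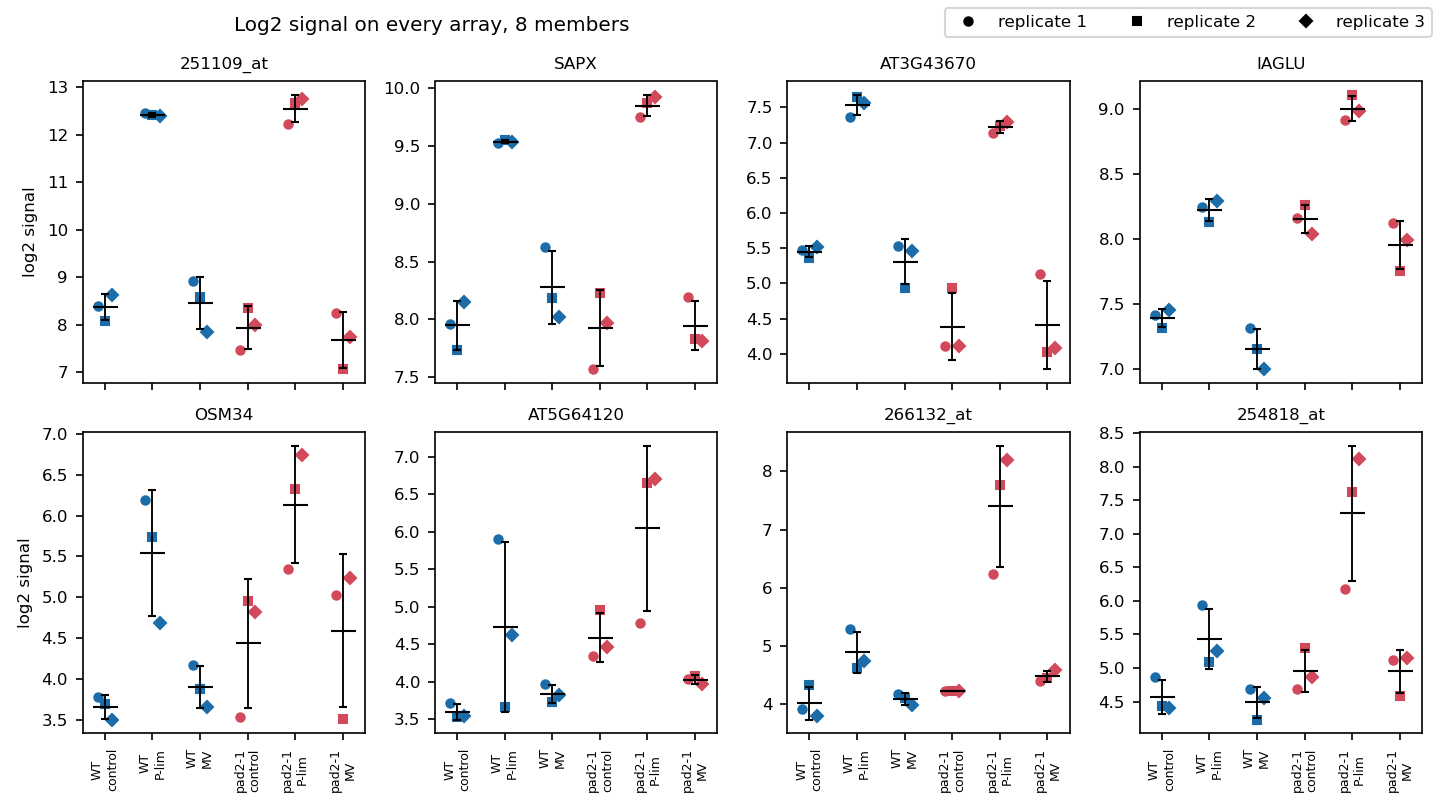
The log2 signal of 8 members is shown on every array, with WT in blue and pad2-1 in red. Marker shapes give the replicate number, horizontal bars the mean and whiskers the SD of 3 arrays. 251109_at rose to a similar level in both genotypes, and the SAPX arrays of pad2-1 lay slightly above those of WT under P-lim. AT3G43670 started lower in pad2-1, and IAGLU was higher in pad2-1 in each condition. OSM34 and AT5G64120 had a wide spread under P-lim. 266132_at and 254818_at rose further in pad2-1.

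The remaining 20 members are known by probe set only. Their rises lay between 0.81 and 2.17 in WT and between 0.83 and 2.53 in pad2-1. 263831_at (2.17 and 2.44) and 248377_at (2.03 and 2.53) had the largest of them, and 11 of the 20 met the rule with any array left out. The least even was 254805_at, with 2.30, 2.59 and 2.49 in WT control and 5.31, 2.85 and 3.12 in WT P-lim. A single array carried most of its WT rise of 1.30, which was 0.53 without it. 266743_at went from 3.49, 3.69 and 3.64 in WT control to 5.77, 3.84 and 3.99 in WT P-lim, and in pad2-1 from 3.51, 3.56 and 3.67 to 5.58, 5.41 and 6.19. Here the first WT array alone reached the level that all 3 pad2-1 arrays had.

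Members whose arrays deviated alike are also described by correlation. Over the 18 arrays, after each group mean was taken off, the probe set most like 251109_at among the members was SAPX (r = 0.87), followed by 263831_at (0.84) and 254098_at (0.83). The median r over all pairs of members was 0.29. The arrays share their RNA and hybridization across probe sets, so these values describe the arrays as much as the transcripts.

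The rule did not use the difference between the genotypes, and its limits were the same for WT and pad2-1. It did use the same group means. The genotype tests above and the counts below are therefore not independent of how the members were chosen. The members also deviated together between arrays and are not separate observations. The shares over all probe sets are for probe sets not chosen by a rise under P-lim. In the control condition 4 of 36 members were higher in pad2-1 (11.1%, against 3.66% of all probe sets) and 1 was lower (2.8%, against 2.69%). The 4 were IAGLU, AT5G01870, 259040_at (0.98 ± 0.25, SE; limma adjusted p = 0.0208) and 250670_at (0.68 ± 0.18; limma adjusted p = 0.0324), and the lower one was AT3G43670. Under MV 3 members were higher (8.3%, against 2.34% of all probe sets), namely IAGLU, 259040_at and 256017_at, and 3 were lower (8.3%, against 2.82%), namely AT3G43670, 254098_at (-0.39 ± 0.11) and 250073_at (-0.52 ± 0.11). The 4 that were higher in the control became 1 or 2 without any 1 of the control arrays other than pad2-1 replicate 3.

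Under P-lim 11 members were higher in pad2-1 (30.6%, against 3.15% of all probe sets) and 0 were lower (0.0%, against 2.16%), also at an unadjusted p. Besides the 5 already described, IAGLU, AT5G01870, AT5G45410, 266132_at and 254818_at, they were 259040_at (1.25), 266743_at (1.19), 250670_at (0.81), 266415_at (0.80), 253829_at (0.71) and 264261_at (0.62). Of the 11, 4 were also higher in the control and 7 were called under P-lim alone, and the difference of the rises itself was not tested in members, since the rule bounds both rises. The arrays of the genotypes overlapped for 266743_at. Without WT P-lim replicate 1 the WT rises of 266743_at, 250670_at and 266415_at were 0.31, 0.77 and 0.74, below the limit of the rule. The median difference over all members was 0.44 under P-lim, 0.12 in the control and 0.08 under MV. Without WT P-lim replicate 1 the count under P-lim was 15, without WT P-lim replicate 3 it was 7, and without both arrays numbered 1 it was 16. In no condition were 21 members called. In 2 members (5.56%, against 1.34% of all probe sets), 248377_at and AT2G36885, the arrays of pad2-1 lay above those of WT under P-lim and below them under MV, and neither difference passed the test in either member.

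**Figure D4:**
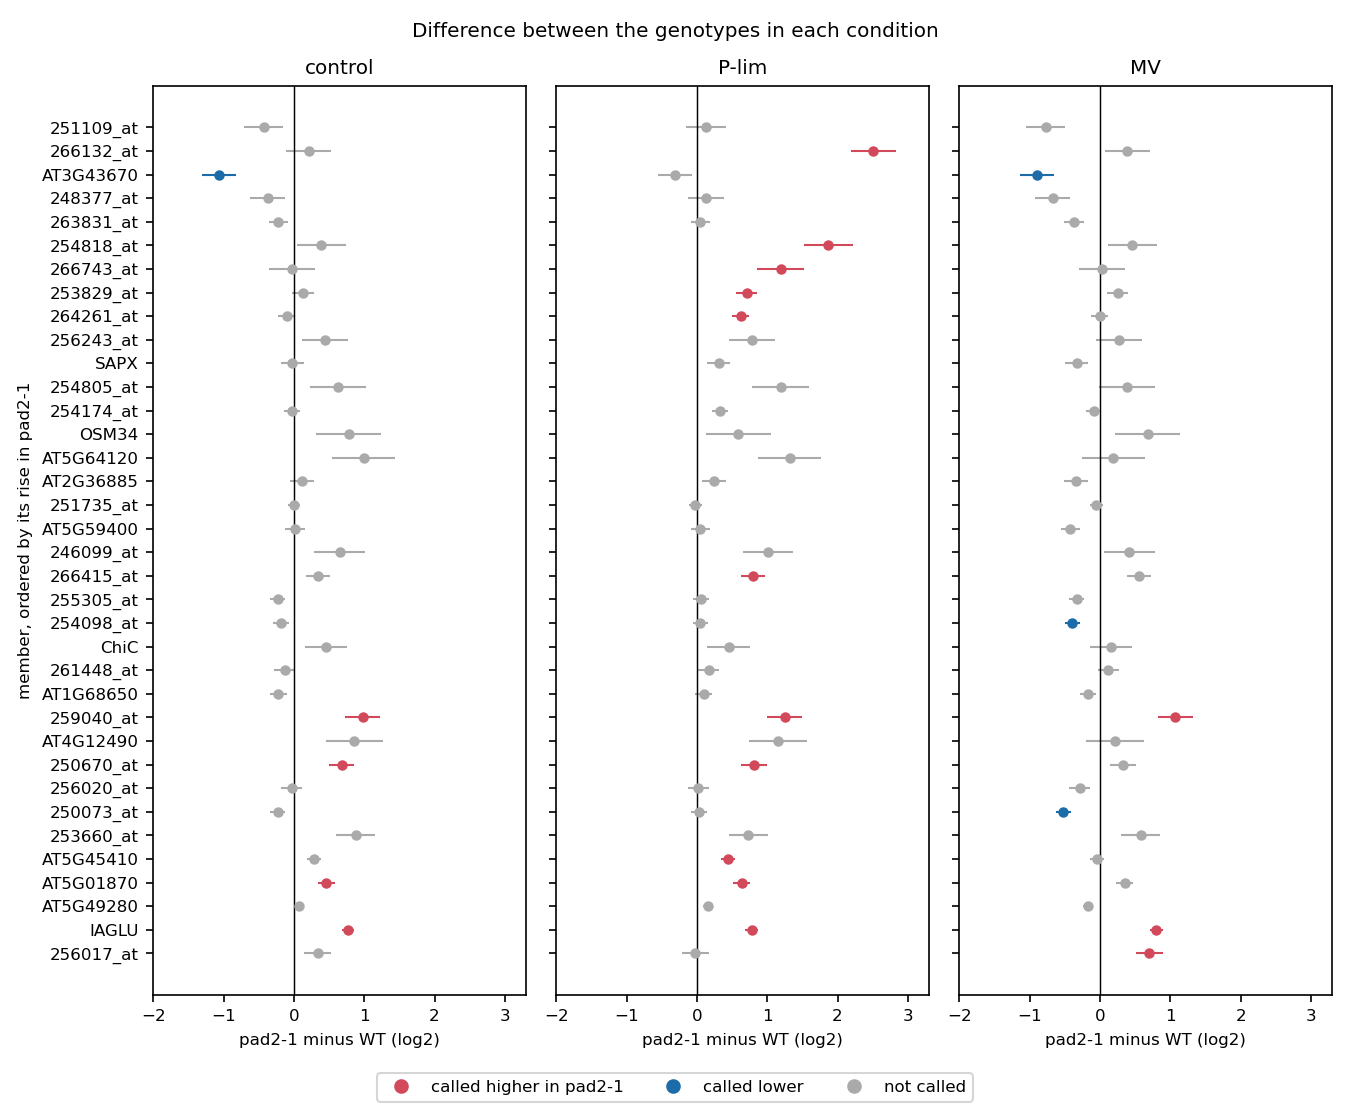
The difference pad2-1 minus WT (log2, with the standard error of the limma fit) is shown for each member in the control, P-lim and MV conditions. Red points were called higher in pad2-1, blue points lower, and grey points were not called. The P-lim panel has 11 red and 0 blue points, the control panel 4 and 1, and the MV panel 3 and 3.

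Genes of the classical phosphate starvation response were looked up beside the members. Of 92 genes in 5 lists (sensing, transport, membrane lipids, phosphatases and ribonucleases, and phosphoenolpyruvate metabolism), 8 had a probe set named by the platform annotation or the supplementary lines read. The lists covered 9 of the 13631 probe sets with 1 gene and 0 of the 13 members with a gene name. With so few listed probe sets, the count of 0 says little about the members. The genes of the other 23 members are not known here. None of these 8 was among the 19 membrane lipid genes. Under P-lim 2 of these 9 probe sets rose in WT (limma, against 4.92% of all probe sets that rose) and 4 rose in pad2-1 (against 6.58%), and 0 fell in either genotype (against 4.28% and 5.23%), also at an unadjusted p. SQD1 and SQD2, membrane lipid genes of sulfolipid synthesis whose probe sets are known from a table of the study, are not in these counts. The P-lim difference of SQD1 was 0.88 in WT and 0.96 in pad2-1, which met the values of the rule, and that of SQD2 was 0.39 in WT and 1.2 in pad2-1, values given without a test. The gene for the ribonuclease RNS2 rose by 0.28 ± 0.05 (SE) in WT (limma adjusted p = 0.000546) and by 0.38 ± 0.05 in pad2-1 (limma adjusted p = 2.38e-05), and PPDK, pyruvate orthophosphate dikinase, rose by 0.83 ± 0.09 and 0.58 ± 0.09. AT1G13750, purple acid phosphatase 1, rose by 1.05 ± 0.13 in pad2-1 (limma adjusted p = 2.92e-05) and stood at 0.07 ± 0.13 in WT (limma adjusted p = 0.813). VIH1, an inositol pyrophosphate kinase, rose by 0.38 ± 0.09 in pad2-1 (limma adjusted p = 0.00624) and stood at -0.05 ± 0.09 in WT (limma adjusted p = 0.819). The difference between its changes did not pass the test (0.43 ± 0.12, limma adjusted p = 0.137).

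Under MV RNS2 rose by 0.21 ± 0.05 in each genotype, and PPDK by 0.86 ± 0.09 and PHT5;1, a vacuolar phosphate transporter, by 0.18 ± 0.06 in WT (limma adjusted p = 0.0394). In all, 3 of these probe sets passed in WT (against 7.98% of all probe sets) and 1 in pad2-1 (against 4.16%). RNS2 was below 0.8 under P-lim, and PPDK was below 0.8 in pad2-1 and above 0.5 under MV in WT.

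Other gene groups also changed under P-lim, some of them under MV as well, and their part in the result was not tested. Of the 3 measured genes of sulfur, iron and zinc homeostasis, 2 fell under P-lim in each genotype. The shares of all probe sets that fell were 4.28% in WT and 5.23% in pad2-1. BHLH101 is a transcription factor of the iron deficiency response. It fell under P-lim by 3.72 on the log2 scale in WT (limma adjusted p = 4.79e-10) and by 4.14 in pad2-1 (limma adjusted p = 8.97e-11). Its arrays went from 7.22, 7.0 and 6.59 to 3.31, 3.14 and 3.20 in WT, with no overlap. Under MV its change was -0.70 in WT (limma adjusted p = 0.0164) and -0.31 in pad2-1 (0.385). PYE, another regulator of that response, fell by 2.07 on the log2 scale in WT and by 2.17 in pad2-1 under P-lim. Under MV its change was 0.17 in WT (limma adjusted p = 0.406) and 0.52 in pad2-1 (0.00861). ZIP9, the other measured gene, had P-lim changes of 0.09 in WT (limma adjusted p = 0.682) and 0.16 in pad2-1 (0.38). Of 6 flavonoid genes 3 rose under P-lim in each genotype (against 4.92% of all probe sets in WT and 6.58% in pad2-1), with UGT78D1 at 0.34 and 0.38 and UGT78D2 at 0.30 and 0.27. The other one was UF3GT in WT (limma adjusted p = 0.0317) and 5MAT in pad2-1 (0.0239). The UF3GT call was lost without WT control replicate 1 or 2 or without any WT P-lim replicate (limma adjusted p = 0.0701 to 0.126), and that of 5MAT without pad2-1 control replicate 1 or 3 or without any pad2-1 P-lim replicate (0.0548 to 0.133). Under MV 6 of the 6 rose in WT (against 7.98%) and 3 in pad2-1 (against 4.16%). Of 2 sugar and starch genes, APL3, a subunit of ADP-glucose pyrophosphorylase, rose under P-lim by 0.48 in WT and 0.62 in pad2-1, and BAM5 did not pass the test in either. Under MV the difference of APL3 was 0.85 in WT (limma adjusted p = 7.8e-05) and 0.26 in pad2-1 (0.245), and BAM5, a beta-amylase, rose by 1.18 in WT (0.00628) and 1.61 in pad2-1 (0.000756). The WT call of APL3 under P-lim was lost without WT control replicate 1 (limma adjusted p = 0.0917) or without WT P-lim replicate 2 (0.063) or 3 (0.0598).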

How the data were processed

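The authors processed the 18 arrays together with RMA and deposited log2 values, 1 for each probe set and array. RMA gives the arrays a common distribution, so a shift shared by most transcripts cannot be seen, and low signals are compressed. The RNA kit differs between the labels (Trizol) and the methods (RNeasy). Of 22810 probe sets, 64 manufacturer controls were left out. Of all probe sets, 13631 had 1 gene, 13513 of them from the platform annotation and 118 from the supplementary table lines read. 0 columns belonged to other series.

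Group means gave the members. limma (version 3.58.1, R 4.3.3) fitted 6 group means to all 18 arrays, with p-values adjusted by the Benjamini-Hochberg method over 22746 probe sets and an adjusted p under 0.05 taken as a call. On simulated data for the control genotype comparison, 98.5% of 200 probe sets shifted by 1 were recovered and 12 unchanged ones were called. The simulated noise was independent, with 1 spread per probe set in all groups, and smaller shifts were not simulated. That share therefore need not hold for the members, whose spread differed between groups and whose differences were often smaller. The number of arrays limits the precision, and p-values measure the spread between these arrays.

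Named are all members with 1 gene and, up to 15 in all, members called between the genotypes by at least 0.5. Up to 4 genes a list are named by the size of their change under P-lim. Other probe sets were named after their values were seen. The members and lists were chosen with earlier results of these data known. Alternatives were other limits of the rule, dim probe sets left out, arrays shifted to 1 median, trend and robust estimation, fits of the compared groups alone, a replicate block, and each array left out. Sequences and coordinates were not used here, since no genome build was at hand.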

Additional observations from a re-analysis of the deposited data

Results flagged for a closer look

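The interaction of genotype with P-lim passed the test for AT1G13750 (purple acid phosphatase 1), whose rise was 0.98 ± 0.19 (SE) larger in pad2-1 (limma adjusted p = 0.0157), against 0.185% of all probe sets with a larger and 0.541% with a smaller change. Its log2 signals were 6.26, 6.58 and 6.36 in WT control, 6.37, 6.47 and 6.58 in WT P-lim, 5.63, 5.74 and 5.85 in pad2-1 control and 6.48, 7.05 and 6.86 in pad2-1 P-lim. The adjusted p was 0.056 without WT control replicate 2 and 0.055 without pad2-1 P-lim replicate 2.

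In 2 of 36 members (5.56%, against 1.34% of all probe sets) the arrays of the genotypes were apart in opposite directions under P-lim and MV, and the difference between the conditions was not tested. For 248377_at pad2-1 minus WT was 0.13 under P-lim and -0.67 under MV, and for AT2G36885 it was 0.24 under P-lim and -0.34 under MV. None of these 4 differences passed the test.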

How the results depend on the processing

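The number of members was 51, 34 and 28 with a rise of at least 0.7, with MV changes limited in both directions, or with MV changes under 0.3, 38 with arrays shifted to 1 median, 19 with a rise of at least 1, and 21 with the dimmer 50% of probe sets left out. It was 25 to 38 with each array left out, and 28 (24 of them members here) without both P-lim arrays numbered 1, an alternative added after the data were seen.

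Members higher in pad2-1 in the control numbered 9 with only the compared groups in the fit, 2 with trend and robust estimation, 8 without both arrays numbered 1 and 0 with a log2 change of at least 1, and the 1 lower member became 0 without the dim probe sets. Under P-lim the 11 became 5 without the dim probe sets and 4 with a log2 change of at least 1. Under MV the 3 higher became 5 with only the compared groups and 1 with a log2 change of at least 1. The 3 lower became 1 with trend and robust estimation, 1 with the replicate block, 1 without both arrays numbered 1 and 0 with a log2 change of at least 1. The 1 list gene called under MV in pad2-1 became 0 with only the compared groups. Without the dim probe sets 21 members stayed in the fit, and the counts there leave out the calls of the other members. The counts with a log2 change of at least 1 are a part of the calls of the main fit. The cause of the other changes was not tested.

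With each array left out, members higher in pad2-1 numbered 1 to 5 in the control (1 without WT replicate 2 or 3 or pad2-1 replicate 2), 7 to 15 under P-lim and 1 to 4 under MV (1 without WT MV replicate 2 or pad2-1 MV replicate 3). Lower members numbered 0 to 2 in the control (0 without pad2-1 control replicate 1 or 3, 2 without replicate 2), 0 to 0 under P-lim and 0 to 5 under MV (1 without WT control replicate 1, WT P-lim replicate 3 or pad2-1 P-lim replicate 2, 0 without WT MV replicate 1 or pad2-1 MV replicate 2 or 3, and 5 without pad2-1 control replicate 1 or 2 or pad2-1 MV replicate 1). List genes higher numbered 2 to 2 in WT and 4 to 4 in pad2-1 under P-lim, 2 to 3 in WT and 1 to 1 in pad2-1 under MV, and 0 to 2 for the interaction.

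Replicate numbers are shared by the groups but do not pair the samples. The correlation of the deviations over 45 same-numbered pairs ran from -0.185 to 0.177 with a median of -0.004, and 2 were over 0.1. With the number as a block, 11 members were still higher in pad2-1 under P-lim, 4 higher and 1 lower in the control, and 2 higher and 1 lower under MV. No result past the threshold changed direction in any fit, while differences near 0 that did not pass it, such as those of SAPX and AT5G59400 between the genotypes in the control, changed sign in some fits. Over single genes and settings 2479 results kept their side of the threshold, 39 fell below it and 29 passed it. The search of member promoters for the P1BS motif was not run. Signals near background limit OSM34, AT5G64120, 254805_at and 266743_at, whose WT controls were all below the lower quartile of their arrays.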
